A study of Mus musculus with 8 samples.

Results

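Slc7a5, Slc3a2, Slc1a5, Slc38a1, Slc38a2 and Myc encode the main amino acid carriers of activated T cells and the transcription factor that is known to raise their expression. These 6 genes were chosen by name out of 30406 genes measured in all 4 expression libraries, and all 6 passed the filter on low counts in every comparison they entered (Myc was left out of the comparison of barcodes with and without a Myc UMI). They were followed in 31418 CD8 T barcodes of 36011 deposited barcodes, taken as barcodes with at least 1 UMI (unique molecular identifier, a tag that counts RNA molecules) of Cd8a or Cd8b1 and at least 1 of Cd3d, Cd3e or Cd3g.

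The cells were CD8 T cells from MC38 colon carcinoma tumours grown in wild-type C57BL/6 mice, profiled with 10x Genomics 5′ single-cell RNA sequencing together with their T cell receptor (TCR) chains. Experiment 1 set tumours of mice given 10 mg/kg rhIL-7-hyFc under the skin (a human interleukin-7 joined to a hybrid Fc for a longer half-life) and collected on day 7 against tumours of mice given buffer, with T cells enriched on magnetic beads. Experiment 2 set mice given 1.25 mg/kg rhIL-7-hyFc and, from day 3, TCE (a T cell engager that binds mouse PD-L1 and CD3ε) against mice given 1.25 mg/kg rhIL-7-hyFc alone; live CD45+ TCRβ+ CD8α+ cells were sorted 24 h after the last treatment. Each group is 1 library, so a difference between treatments has no replicate check, and how many mice were pooled is not stated in the labels. The labels do not state the collection day of the buffer tumours either, which bears on every ratio of experiment 1. The rhIL-7-hyFc background is shared by both groups of experiment 2.

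Activated T cells import large amounts of leucine and glutamine to make protein and nucleotides. Slc7a5 (LAT1) is the light chain that exchanges leucine and other large neutral amino acids for glutamine, and it needs the heavy chain Slc3a2 (CD98hc, 4F2hc) to reach the plasma membrane. Slc1a5 (ASCT2), Slc38a1 (SNAT1) and Slc38a2 (SNAT2) bring in glutamine and other small neutral amino acids with sodium. Myc is induced early after TCR signalling, pairs with MAX on E-box DNA and drives ribosome and metabolic genes; in mouse T cells, Slc7a5-dependent uptake and Myc are known to sustain each other, and leucine supply is read by the kinase complex mTORC1.

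In GRCm38 (GENCODE M21), Slc7a5 lies at chr8:121881150-121907694 on the minus strand, Slc3a2 at chr19:8706882-8723369 (minus) and Slc1a5 at chr7:16781340-16798274 (plus). Slc38a1 at chr15:96571418-96642913 and Slc38a2 at chr15:96687392-96699730 are neighbours on the minus strand, and Myc lies on the same chromosome at chr15:61985391-61990374 (plus). Slc7a5 is overlapped on the opposite strand by the annotated gene Gm20388, and no other gene of that annotation overlaps a member. RefSeq promoter sequence (GRCm38.p6, 250 bases before to 50 after the start) was available only for Slc38a2 and Slc3a2, 2 of the 6 members. It is shown in lower case with GC boxes (GGGCGG, either strand) and TATAA in capitals. The Slc3a2 window lies inside the gene span given above and not at its outer end, so it covers a start within that span. Other starts of Slc3a2 were not examined.
Slc38a2, chr15:96699679-96699978, minus strand: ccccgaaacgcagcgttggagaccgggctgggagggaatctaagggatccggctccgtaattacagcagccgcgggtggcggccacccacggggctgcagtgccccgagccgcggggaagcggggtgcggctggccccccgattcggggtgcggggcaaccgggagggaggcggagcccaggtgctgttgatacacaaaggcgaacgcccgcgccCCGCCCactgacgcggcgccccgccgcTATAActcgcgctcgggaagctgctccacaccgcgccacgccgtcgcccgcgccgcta
Slc3a2, chr19:8713848-8714147, minus strand: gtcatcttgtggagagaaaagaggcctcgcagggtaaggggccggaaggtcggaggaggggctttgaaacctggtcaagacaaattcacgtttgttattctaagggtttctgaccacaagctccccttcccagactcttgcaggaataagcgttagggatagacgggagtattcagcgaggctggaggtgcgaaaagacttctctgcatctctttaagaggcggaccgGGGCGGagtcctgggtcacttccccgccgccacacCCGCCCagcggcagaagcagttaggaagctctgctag
The Slc38a2 promoter held 1 GC box and 1 TATAA, and the Slc3a2 promoter held 2 GC boxes. A GC box was present in 35.9% and TATAA in 24.8% of 32544 mouse promoters of the same length. Neither window held the MYC and MAX E-box CACGTG (7.17% of promoters), CCAAT (37.4%) or TGATGNAA, the letters of an ATF4 site (3.91%), on either strand.

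The CD8 T barcodes numbered 5622 in the rhIL-7-hyFc 10 mg/kg library, 3975 in buffer, 10933 in rhIL-7-hyFc 1.25 mg/kg plus TCE and 10888 in rhIL-7-hyFc 1.25 mg/kg, with medians of 9726, 8456, 6700 and 7138.5 UMIs per barcode. T cell markers (9 of 9 detected) summed to between 6383 and 7900 CPM (UMIs per 1000000 UMIs of the same barcodes) in these barcodes, against 48.8 to 137 CPM in barcodes with no Cd3 or Cd8 UMI. RNA of macrophages and monocytes, whose 11 markers were all detected, differed between libraries: its summed level was 273 CPM in rhIL-7-hyFc 10 mg/kg and 1105 CPM in buffer, and 857 CPM in the combination and 3382 CPM in rhIL-7-hyFc 1.25 mg/kg. At least 3 UMIs of these markers were found in 3.49% and 20.5% of CD8 T barcodes of experiment 1, and in 7.28% and 34.8% of experiment 2, in the same order. A Cd4 UMI was present in 0.409% to 1.51% of barcodes, and each pair of libraries shared 45 to 195 barcodes (0.805% to 2.09% of the smaller library). Results were therefore also computed without the barcodes that held macrophage RNA.

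**Figure D1:**
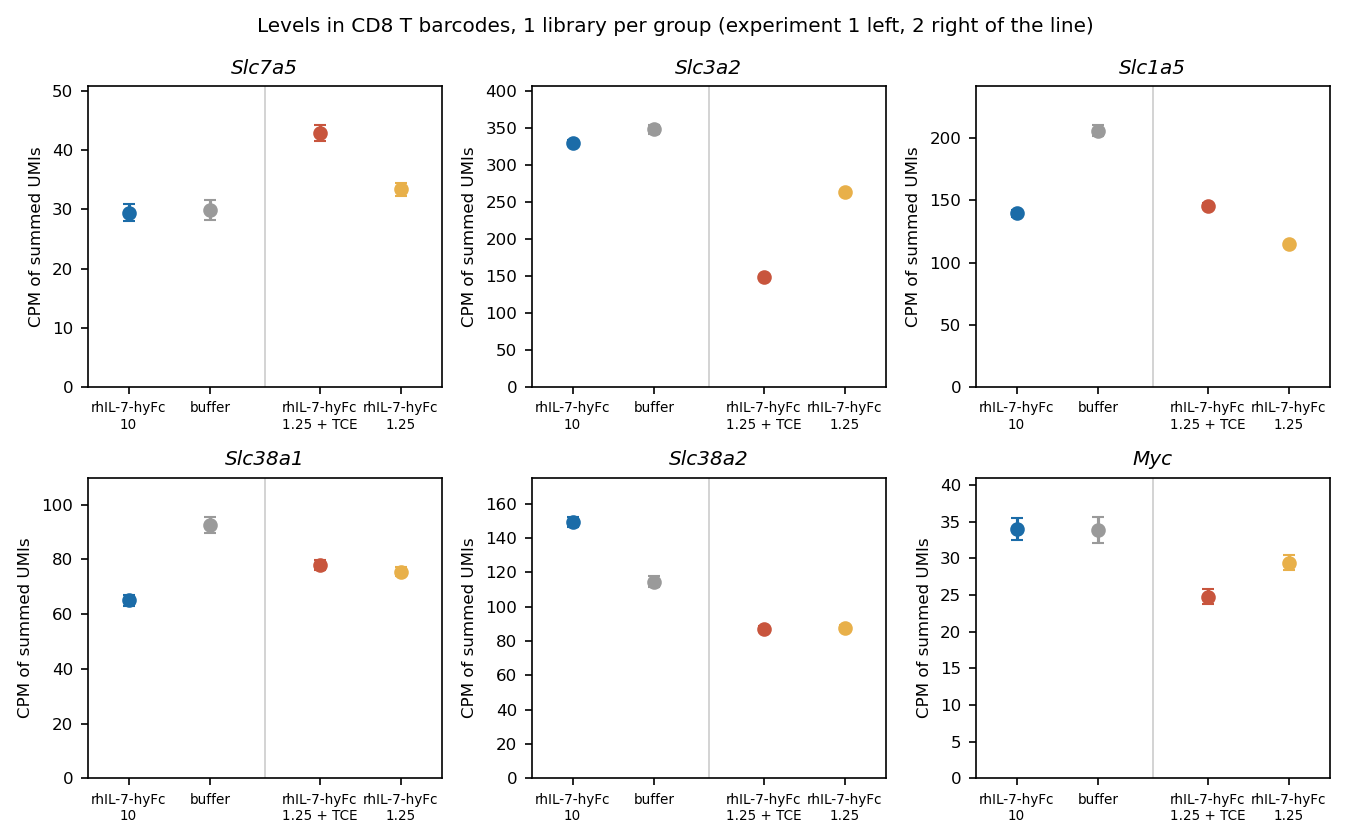
Level of each gene (CPM of summed UMIs, y axis from 0) in the CD8 T barcodes of each library, with exact 95% Poisson intervals (counting error only) and 1 library per group. Slc3a2 was lower, at 149 CPM in the combination, against 263 CPM in rhIL-7-hyFc 1.25 mg/kg, and Slc1a5 and Slc38a1 were lower in rhIL-7-hyFc 10 mg/kg than in buffer.

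The heavy chain Slc3a2 was the member with the largest treatment ratio over all CD8 T barcodes, and this was in experiment 2. Its level was 149 CPM (95% Poisson interval 147 to 152) in the combination, against 263 CPM (260.0 to 266) in rhIL-7-hyFc 1.25 mg/kg, a 1.77-fold lower level (95% exact interval 1.73 to 1.80, counting error only). It was the 1 member of 6 past 1.5-fold in that experiment, where 2.48% of 9230 genes at 5 CPM or more were at least 1.5-fold higher and 9.02% at least 1.5-fold lower. In experiment 1, none of the 6 members passed 1.5-fold, where 6.31% of 9037 genes were higher and 21.5% lower.

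Slc3a2 in experiment 2 was lower within every class examined. The log2 ratio was -0.75 in cycling Pdcd1 barcodes, -0.97 in cycling barcodes without Pdcd1, -0.84 in non-cycling Pdcd1 barcodes and -0.87 in non-cycling barcodes without Pdcd1. By clone size it was -0.88 in clonotypes seen once, -0.87 in clonotypes of 2 to 4 barcodes and -0.77 in clonotypes of at least 5. Slc3a2 is also made by macrophages. In barcodes without Cd3 or Cd8 UMIs its level was 210.1 CPM in the combination (132 barcodes) and 419 CPM in rhIL-7-hyFc 1.25 mg/kg (923 barcodes), so it was lower there as well. Among CD8 T barcodes with macrophage RNA the levels were 169 and 288 CPM, and among those without it 145 and 229 CPM, in the same order, which gives a log2 ratio of -0.65 without macrophage RNA. The smallest difference was in cycling Pdcd1 barcodes without macrophage RNA (log2 ratio -0.47), where no member passed 1.5-fold.

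The light chain Slc7a5 differed in the other direction in experiment 2. It reached 42.9 CPM (41.5 to 44.2) in the combination, against 33.4 CPM (32.3 to 34.5) in rhIL-7-hyFc 1.25 mg/kg, a ratio of 1.28 (1.23 to 1.34). The ratio was highest in cycling barcodes without Pdcd1, at 69.6 against 43.0 CPM (ratio 1.62), and lowest among the 4 states in non-cycling barcodes without Pdcd1, at 42.1 against 37.9 CPM (ratio 1.11). Without barcodes holding macrophage RNA, the log2 ratio over all CD8 T barcodes was 0.17 and in these non-cycling barcodes 0.00, against 0.36 and 0.15 with them. In experiment 1 Slc7a5 was at 29.5 CPM (28.1 to 30.9) in rhIL-7-hyFc 10 mg/kg and 29.8 CPM (28.2 to 31.6) in buffer, which do not differ beyond counting error.

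The 4 cycling by Pdcd1 states did not follow that overall value in experiment 1. In cycling barcodes without Pdcd1, Slc7a5 was at 30.0 CPM in rhIL-7-hyFc 10 mg/kg (931 barcodes) and 57.9 CPM in buffer (311 barcodes), a 1.93-fold lower level (1.61 to 2.31). In cycling Pdcd1 barcodes it was at 37.1 CPM in rhIL-7-hyFc 10 mg/kg and 30.9 CPM in buffer, a ratio of 1.201 (1.04 to 1.38). Myc followed in the first of these states, with 38.1 CPM in rhIL-7-hyFc 10 mg/kg and 61.6 CPM in buffer (1.61-fold lower, 1.36 to 1.91). Thus 2 of 6 members passed 1.5-fold there, but the share of all genes that did so was computed only over all CD8 T barcodes. Macrophage RNA also differed in this state, with at least 3 marker UMIs in 3.76% of the rhIL-7-hyFc 10 mg/kg barcodes and 26.0% of the buffer barcodes; without those barcodes the log2 ratios were -0.86 for Slc7a5 and -0.75 for Myc.

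The glutamine carrier Slc1a5 was lower in rhIL-7-hyFc 10 mg/kg than in buffer and higher in the combination than in rhIL-7-hyFc 1.25 mg/kg. It was at 139.7 CPM (137 to 143) in rhIL-7-hyFc 10 mg/kg and 206 CPM (202 to 211) in buffer, 1.48-fold lower (1.43 to 1.52). Within the 4 states the same comparison gave log2 ratios from -0.09 to -0.29, against the overall -0.56. Without macrophage RNA the overall log2 ratio was -0.63, past 1.5-fold, and the states then gave -0.55 in cycling and -0.26 in non-cycling barcodes without Pdcd1, and -0.15 and -0.18 in cycling and non-cycling Pdcd1 barcodes. Pdcd1 barcodes, in which Slc1a5 was high in both libraries, made up 17.4% of the rhIL-7-hyFc 10 mg/kg library and 67.1% of buffer, and the part of this share in the overall ratio was not tested. In experiment 2 Slc1a5 was at 146 CPM (143 to 148) in the combination and 115 CPM (113 to 117) in rhIL-7-hyFc 1.25 mg/kg, a ratio of 1.27 (1.24 to 1.30). That ratio came down to a log2 value of 0.08 without the macrophage RNA barcodes, from 0.35 with them. Slc1a5 was at 91.8 and 91.2 CPM in barcodes with macrophage RNA and at 156 and 148 CPM in those without it, in the same order of libraries.

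Over all CD8 T barcodes, the sodium-coupled carriers Slc38a1 and Slc38a2 differed in experiment 1 and hardly in experiment 2. Slc38a1 was at 65.1 CPM (63.1 to 67.1) in rhIL-7-hyFc 10 mg/kg and 92.6 CPM (89.6 to 95.5) in buffer, 1.42-fold lower (1.36 to 1.49), and log2 ratios within the 4 states ran from -0.17 to -0.43. Slc38a2 was at 149 CPM (146 to 152) in rhIL-7-hyFc 10 mg/kg and 115 CPM (111 to 118) in buffer, a ratio of 1.30 (1.26 to 1.35), but within the 4 states its log2 ratios lay between -0.05 and 0.16. With CPM averaged over barcodes in place of summed UMIs, the log2 ratio of Slc38a2 in experiment 1 was 0.01, against 0.38 with sums, and that of Slc38a1 was -0.87, past 1.5-fold, against -0.51. With each clonotype counted once they were 0.06 for Slc38a2 and -0.51 for Slc38a1. In experiment 2, Slc38a1 was at 78.0 and 75.5 CPM and Slc38a2 at 87.0 and 87.9 CPM in the combination and in rhIL-7-hyFc 1.25 mg/kg, ratios of 1.03 (1.00 to 1.07) and 0.991 (0.962 to 1.02). Without macrophage RNA, Slc38a2 was at 89.8 CPM (87.7 to 92.0) and 102 CPM (99.3 to 105), and Slc38a1 at 80.7 and 80.4 CPM, in the same order. With all barcodes, the Slc38a2 ratio was 0.851 (0.803 to 0.901) in non-cycling barcodes without Pdcd1 and 1.07 (1.01 to 1.13) in cycling Pdcd1 barcodes. It was 0.987 in cycling barcodes without Pdcd1 and 0.993 in non-cycling Pdcd1 barcodes.

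Over all CD8 T barcodes Myc did not differ beyond counting error between treatments in experiment 1 and was lower with the combination in experiment 2. It was at 33.9 CPM in both libraries of experiment 1 (intervals 32.5 to 35.4 in rhIL-7-hyFc 10 mg/kg and 32.1 to 35.7 in buffer). The ratio was 0.978 (0.879 to 1.09) over all cycling and 1.02 (0.929 to 1.12) over all non-cycling barcodes of experiment 1. Within each cycling by Pdcd1 state and each clone size, however, Myc was lower in rhIL-7-hyFc 10 mg/kg. The log2 ratios were -0.16 and -0.20 in cycling and non-cycling Pdcd1 barcodes, and -0.69 and -0.28 in cycling and non-cycling barcodes without Pdcd1. They were -0.46, -0.52 and -0.21 in clonotypes seen once, of 2 to 4 and of at least 5. Among these states and clone sizes, the counting intervals lay wholly below 1 in both states without Pdcd1, in clonotypes seen once and in those of 2 to 4. They spanned 1 in both Pdcd1 states and in clonotypes of at least 5. In experiment 2 it was at 24.8 CPM (23.7 to 25.8) in the combination and 29.4 CPM (28.4 to 30.4) in rhIL-7-hyFc 1.25 mg/kg, a ratio of 0.842 (0.798 to 0.889). Without macrophage RNA it was at 25.1 CPM in the combination and 33.2 CPM in rhIL-7-hyFc 1.25 mg/kg, a log2 ratio of -0.41, against -0.25 with all barcodes. The states of experiment 2 differed: the log2 ratio was -0.67 and -0.38 in cycling and non-cycling barcodes without Pdcd1 (-0.83 and -0.53 without macrophage RNA), and 0.00 and -0.29 in cycling and non-cycling Pdcd1 barcodes (0.05 and 0.01 without macrophage RNA). With each clonotype counted once, the log2 ratio was -0.45 in experiment 1 and -0.56 in experiment 2. Within clonotypes of at least 5 barcodes Myc was at 20.7 CPM in both libraries of experiment 2, and within clonotypes seen once at 30.5 CPM in the combination and 43.9 CPM in rhIL-7-hyFc 1.25 mg/kg.

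CPM ratios depend on the rest of the transcriptome. The median log2 ratio over all genes was -0.21 in experiment 1 and 0.08 in experiment 2, and scaling by trimmed means (TMM) moved every ratio by 0.27 in experiment 1 and by -0.06 in experiment 2. On the TMM scale of experiment 1, Slc38a2 was at 0.65 (past 1.5-fold), Myc at 0.28, Slc7a5 at 0.25, Slc3a2 at 0.19, Slc38a1 at -0.24 and Slc1a5 at -0.29, so the sign of Slc7a5 and Slc3a2 turned. On that scale in experiment 2 Slc3a2 was at -0.88 and Slc38a1, close to 0, changed sign to -0.02.

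**Figure D2:**
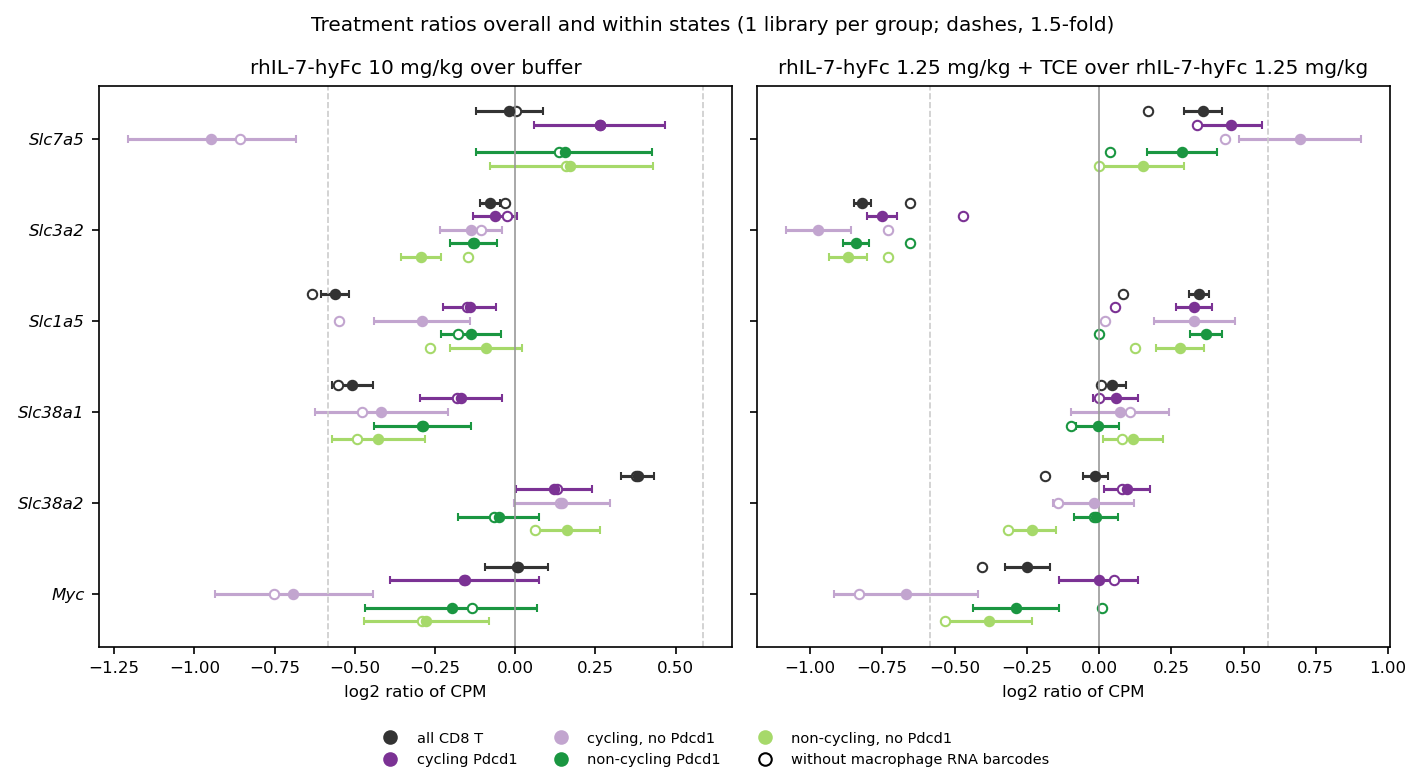
Log2 ratio of CPM (x axis) for each member in experiment 1 (left, rhIL-7-hyFc 10 mg/kg over buffer) and experiment 2 (right, combination over rhIL-7-hyFc 1.25 mg/kg), over all CD8 T barcodes and within 4 states, with exact 95% counting intervals on filled points; open points leave out barcodes with macrophage RNA. Slc3a2 lies left of 0 in all 5 rows of experiment 2, and Slc7a5 and Myc lie farthest left in cycling barcodes without Pdcd1 in experiment 1.

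Other genes of these pathways also passed 1.5-fold, and their counts are to be read against the 6.31% of all genes higher and 21.5% lower in experiment 1 and the 2.48% higher and 9.02% lower in experiment 2. Of other amino acid transporters, 0 of 8 measured were higher and 4 lower in experiment 1, and 0 of 11 higher and 5 lower in experiment 2, with Slc7a8 (LAT2, another light chain that joins Slc3a2) at 4.35 CPM in the combination and 22.7 CPM in rhIL-7-hyFc 1.25 mg/kg. Of the ATF4 amino acid response, 0 of 21 were higher and 8 lower in experiment 1, and 1 of 20 higher and 3 lower in experiment 2; Mthfd2, a mitochondrial one-carbon enzyme, was at 44.1 CPM in rhIL-7-hyFc 10 mg/kg and 88.1 CPM in buffer, and in experiment 2 Cebpb, a transcription factor of the stress response and of myeloid cells, was at 327 CPM in the combination and 722 CPM in rhIL-7-hyFc 1.25 mg/kg. Of mTORC1 and its sensors, 2 of 28 were higher and 2 lower in experiment 1, and 0 of 28 higher and 2 lower in experiment 2; Eif4ebp1, the translation repressor that mTORC1 inactivates, was 3.41-fold lower in rhIL-7-hyFc 10 mg/kg and 2.25-fold lower in the combination, and Sesn3, a sestrin that restrains mTORC1, was at 59.3 CPM in rhIL-7-hyFc 10 mg/kg and 33.7 CPM in buffer. The macrophage RNA given above differed between the libraries of both experiments, and its part in these list counts was not tested.

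Few MYC targets and partners passed 1.5-fold with treatment. Among 30 MYC target genes in experiment 1, none was that much higher and 4 were lower (median log2 ratio -0.26, against -0.21 over all genes), and among 29 in experiment 2 none passed either way (median 0.11 against 0.08). Of the MAX network, 0 of 12 were higher and 2 lower in experiment 1, and 0 of 11 passed in experiment 2; Mxd1, a repressor that competes with MYC for MAX, was at 263 CPM in rhIL-7-hyFc 10 mg/kg and 185 CPM in buffer, and at 176 CPM in the combination and 257 CPM in rhIL-7-hyFc 1.25 mg/kg. Of glutamine and branched-chain enzymes, 1 of 14 was higher and 7 lower in experiment 1, and 0 of 12 passed in experiment 2. Of activation markers, 0 of 12 were higher and 8 lower in experiment 1, led by the costimulatory receptors Tnfrsf4 (40.2 against 192 CPM) and Tnfrsf9 (232 against 805 CPM), and 2 of 12 were higher and 1 lower in experiment 2, with Il2ra at 68.6 CPM in the combination and 43.1 CPM in rhIL-7-hyFc 1.25 mg/kg.

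Cycling barcodes, defined by at least 1 UMI of Mki67 or Top2a, had more Slc7a5 and less Slc3a2 and Slc38a2 than non-cycling barcodes of the same library. They made up 23.9% of CD8 T barcodes in rhIL-7-hyFc 10 mg/kg, 38.4% in buffer, 26.7% in the combination and 29.6% in rhIL-7-hyFc 1.25 mg/kg. The 2 states were compared over the 4 libraries with edgeR's quasi-likelihood test, with the library as a block and p-values adjusted over all genes (Benjamini-Hochberg); log2 fold changes are given ± SE with n = 4 libraries. The 4 libraries differ in treatment and experiment, so the SE covers the spread between them. In this comparison 3 of 6 members passed an adjusted p of 0.05, 1 higher and 2 lower, where 15.1% of 12770 genes were higher and 19.2% lower (34.3% in all).

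Slc7a5 was at 32.9, 34.8, 53.5 and 36.5 CPM in cycling barcodes of rhIL-7-hyFc 10 mg/kg, buffer, the combination and rhIL-7-hyFc 1.25 mg/kg, against 27.8, 24.1, 35.9 and 30.8 CPM in their non-cycling barcodes. It was higher in cycling barcodes in 4 of 4 libraries, and most so in buffer and the combination. The log2 fold change was 0.33 ± 0.09 (adjusted p = 0.030), and the call was lost without the buffer, combination or rhIL-7-hyFc 1.25 mg/kg library (adjusted p 0.051 to 0.11).

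Its partner Slc3a2 was at 305, 313, 141 and 245 CPM in cycling barcodes, against 342, 389, 154 and 278 CPM in non-cycling barcodes, in the same order of libraries. It was lower in cycling barcodes in 4 of 4 libraries, with a log2 fold change of -0.26 ± 0.04 (adjusted p = 0.0056). This call was kept with each library left out in turn (adjusted p 0.017 to 0.037), with barcodes thinned to 3000 UMIs and without macrophage RNA. The pair that forms one transporter thus had log2 fold changes of opposite sign; the difference between them was not tested.

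Slc38a2 was at 136, 103, 86.7 and 79.0 CPM in cycling barcodes, against 156, 128, 87.2 and 95.3 CPM in non-cycling barcodes. Its log2 fold change was -0.26 ± 0.06 (adjusted p = 0.020), but in the combination the classes hardly differed. With barcodes thinned to 3000 UMIs the value was -0.08 (adjusted p = 0.47), and cycling barcodes were deeper in every library, with medians of 10847.5 to 13652 UMIs, against 5840 to 9208 in non-cycling barcodes. The call was also lost without the rhIL-7-hyFc 10 mg/kg, buffer or rhIL-7-hyFc 1.25 mg/kg library (adjusted p 0.070 to 0.096).

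Slc38a1, Slc1a5 and Myc did not pass between cycling and non-cycling barcodes. Myc was at 33.3, 34.1, 26.9 and 28.8 CPM in cycling and at 34.2, 33.6, 23.3 and 29.9 CPM in non-cycling barcodes, a log2 fold change of -0.03 ± 0.07 (adjusted p = 0.76). Slc38a1 had 0.04 ± 0.04 (adjusted p = 0.54). For Slc1a5 (-0.04 ± 0.08, adjusted p = 0.76) the experiments went apart: 158 and 217 CPM in cycling barcodes of rhIL-7-hyFc 10 mg/kg and buffer, against 131 and 194 CPM in non-cycling ones, but 136 and 109 CPM in cycling barcodes of the combination and rhIL-7-hyFc 1.25 mg/kg, against 152 and 119.8 CPM in non-cycling ones. Macrophage RNA moved with the state in experiment 2, where 14.6% and 53.5% of cycling barcodes, against 4.61% and 26.8% of non-cycling barcodes, held at least 3 of its UMIs, and its part in this difference was not tested.

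The cycling difference of Slc7a5 was also computed within each Pdcd1 state. Among Pdcd1 barcodes, Slc7a5 was at 37.1, 30.9, 48.7 and 35.5 CPM in cycling and 26.4, 23.7, 32.6 and 26.8 CPM in non-cycling barcodes, a log2 fold change of 0.47 ± 0.05 (adjusted p = 0.00032); 2 of 6 members passed there (17.2% of 12140 genes higher, 12.6% lower), the other being Slc3a2 (-0.21 ± 0.04, adjusted p = 0.0083). Among barcodes without Pdcd1, Slc7a5 had 0.42 ± 0.16 (adjusted p = 0.10), with library log2 ratios of 0.09, 1.21, 0.73 and 0.18, and Slc3a2 was the 1 member that passed (-0.29 ± 0.08, adjusted p = 0.033; 11.3% of 11053 genes higher, 9.25% lower). The Slc3a2 call among barcodes without Pdcd1 ended with any library but buffer left out. Myc was higher in cycling Pdcd1 barcodes in 4 of 4 libraries, with log2 ratios of 0.07, 0.03, 0.50 and 0.22 and a fitted value of 0.23 ± 0.08 that did not pass (adjusted p = 0.071). It passed in 5 of 16 alternatives, with fitted values from 0.12 to 0.44 over all 16. These 5 were thinning, removal of macrophage RNA barcodes, both combined, at least 2 UMIs for a class and no filter on low counts.

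Around the members, 16 of 30 MYC target genes rose in cycling barcodes, 0 fell and the others did not pass (15.1% of all genes rose; median log2 fold change 0.23, against -0.05 over all genes); Ran and Cdk4, of nuclear transport and cell cycle entry, had medians over the 4 libraries of 705 and 192 CPM in cycling barcodes, against 356 and 117 CPM. With barcodes thinned, 10 of these 30 rose and 2 fell; without the combination library 7 rose, and without rhIL-7-hyFc 1.25 mg/kg 10 rose. Of 24 ATF4 response genes, 13 rose, 1 fell and the others did not pass (median 0.41), among them asparagine synthetase Asns (1.48 ± 0.18), Psat1 (1.11 ± 0.09) and Mthfd2 (0.90 ± 0.08); thinned, 11 of 21 rose and 1 fell. Asns is also in the list of glutamine and branched-chain genes. The list counts here and in the next paragraph are to be read against the 15.1% of all genes higher and 19.2% lower in cycling barcodes.

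Of 17 other amino acid transporters, 4 rose and 3 fell, with Slc43a3, a carrier of purine bases, at a median of 18.2 CPM in cycling and 4.45 CPM in non-cycling barcodes, and Slc43a2 (LAT4) falling by 0.38 on the log2 scale (SE 0.11, adjusted p = 0.038); none of these carriers fell by edgeR without rhIL-7-hyFc 10 mg/kg, buffer or rhIL-7-hyFc 1.25 mg/kg, and 2 rose without the combination. Of 32 mTORC1 genes, 2 rose and 6 fell, including the sestrin Sesn3 (-0.45 ± 0.05) and the folliculin gene Flcn (-0.49 ± 0.06). Of 12 MAX network genes, 2 rose and 5 fell: Mxd3, a MAX partner expressed in S phase, rose (5.38 ± 0.13), and Mxd1 (-0.58 ± 0.06) and Mxd4 (-0.45 ± 0.06) fell, with 2 to 4 fallen when 1 library was left out. Of 17 glutamine and branched-chain genes, 7 rose and 3 fell, with CTP synthase Ctps at 0.94 ± 0.08, and of 12 activation markers 1 rose, the transferrin receptor Tfrc (0.84 ± 0.07), and 3 fell, among them Cd69 (-0.65 ± 0.06).

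**Figure D3:**
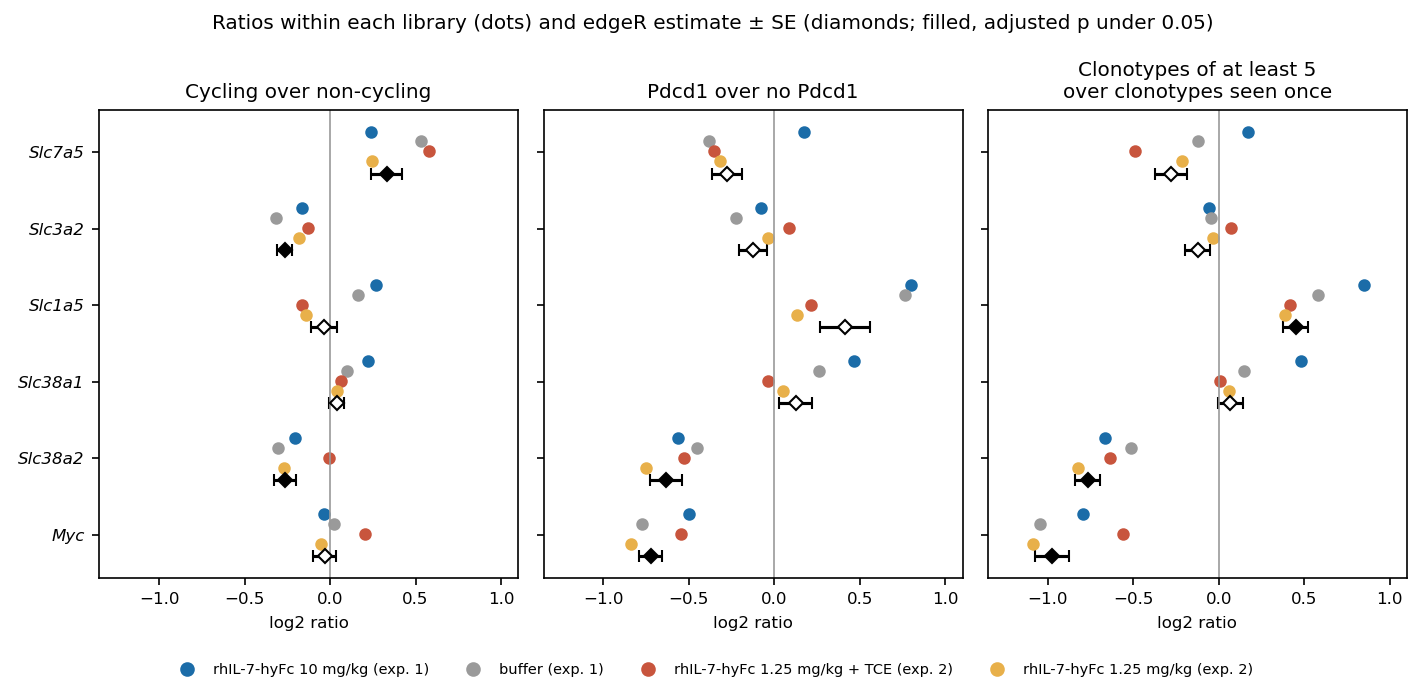
Log2 ratio (x axis) of each member between cycling and non-cycling barcodes, Pdcd1 barcodes and barcodes without Pdcd1, and clonotypes of at least 5 barcodes and clonotypes seen once; dots are single libraries, diamonds the edgeR estimate ± SE over 4 libraries, filled where adjusted p was under 0.05. Slc7a5 and Slc3a2 lie on opposite sides of 0 for cycling, and Myc and Slc38a2 lie left of 0 in every library for Pdcd1 and for clone size.

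Pdcd1 barcodes, those with at least 1 UMI of the gene for the inhibitory receptor PD-1, had less Myc and less Slc38a2 than barcodes without it. They made up 17.4% of rhIL-7-hyFc 10 mg/kg, 67.1% of buffer, 64.1% of the combination and 58.8% of rhIL-7-hyFc 1.25 mg/kg barcodes. Of 6 members, 0 rose and 2 fell, where 8.7% of 12437 genes were higher and 9.88% lower (18.6% in all). Macrophage RNA was found in a larger share of Pdcd1 barcodes than of the others in every library but buffer. At least 3 UMIs were held by 5.92% and 17.3% of Pdcd1 barcodes of rhIL-7-hyFc 10 mg/kg and buffer, against 2.97% and 26.95% without Pdcd1. In the combination and rhIL-7-hyFc 1.25 mg/kg they were held by 9.94% and 47.5% of Pdcd1 barcodes, against 2.52% and 16.6%.

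Myc was at 25.9, 29.2, 21.8 and 24.4 CPM in Pdcd1 barcodes of rhIL-7-hyFc 10 mg/kg, buffer, the combination and rhIL-7-hyFc 1.25 mg/kg, against 36.5, 49.9, 31.8 and 43.8 CPM in barcodes without Pdcd1. The highest Pdcd1 level was below the lowest level without Pdcd1. The log2 fold change was -0.72 ± 0.07 (adjusted p = 0.0070), and -0.84 without macrophage RNA. The adjusted p was 0.052 without rhIL-7-hyFc 10 mg/kg and 0.056 without rhIL-7-hyFc 1.25 mg/kg, at log2 fold changes of -0.73 and -0.68.

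Slc38a2 was at 109.6, 106, 77.0 and 74.8 CPM in Pdcd1 barcodes, against 162, 145, 111 and 126 CPM in barcodes without Pdcd1. It was lower in 4 of 4 libraries, with a log2 fold change of -0.63 ± 0.09 (adjusted p = 0.015). That p was 0.091, 0.057 and 0.092 without rhIL-7-hyFc 10 mg/kg, the combination and rhIL-7-hyFc 1.25 mg/kg, with log2 fold changes of -0.59 to -0.64.

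Slc1a5 went the other way without passing. It was at 206, 227, 152 and 117 CPM in Pdcd1 barcodes, against 119, 134, 131 and 107 CPM in barcodes without Pdcd1. All 4 libraries were higher, by log2 ratios of 0.80 and 0.76 in experiment 1 and 0.21 and 0.13 in experiment 2, and the log2 fold change was 0.41 ± 0.15 (adjusted p = 0.11). Without macrophage RNA it was 0.44 (adjusted p = 0.0087), and with barcodes thinned 0.41 (adjusted p = 0.016).

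Slc7a5, Slc38a1 and Slc3a2 did not pass between the Pdcd1 classes. Slc7a5 was lower in Pdcd1 barcodes in 3 libraries and higher in rhIL-7-hyFc 10 mg/kg (32.2 against 28.6 CPM), with a log2 fold change of -0.28 ± 0.09 (adjusted p = 0.083). Slc38a1 had 0.12 ± 0.10 (adjusted p = 0.42) and Slc3a2 -0.12 ± 0.08 (adjusted p = 0.33).

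The fitted Pdcd1 differences of Myc and Slc38a2 were of like size in both cycling classes, but those of Myc in single libraries were not. Among non-cycling barcodes, Myc fell by 0.79 on the log2 scale (SE 0.09, adjusted p = 0.0059) and Slc38a2 by 0.59 (SE 0.10, adjusted p = 0.014), and these were the 2 of 6 members that passed (11% of 11838 genes higher, 11.1% lower). Among cycling barcodes, Slc38a2 had -0.59 ± 0.09 (adjusted p = 0.031) and was the 1 member that passed (2.77% of 11142 genes higher, 2.13% lower, 4.9% in all), with Myc at -0.66 ± 0.14 (adjusted p = 0.061). The library log2 ratios of Myc among cycling barcodes were -0.53, -1.06, -0.17 and -0.84, lowest in size in the combination. There Myc was at 26.2 CPM with Pdcd1 and 29.4 CPM without it among cycling barcodes, but at 18.4 and 32.9 CPM among non-cycling ones. In buffer the gap was wider among cycling barcodes, at 29.4 and 61.6 CPM, against 28.9 and 43.6 CPM among non-cycling ones. The Slc38a2 call was lost without any library but buffer, among cycling and among non-cycling barcodes alike. Among non-cycling barcodes Slc38a2 passed in 12 of 16 alternatives and Myc in all 16.

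**Figure D4:**
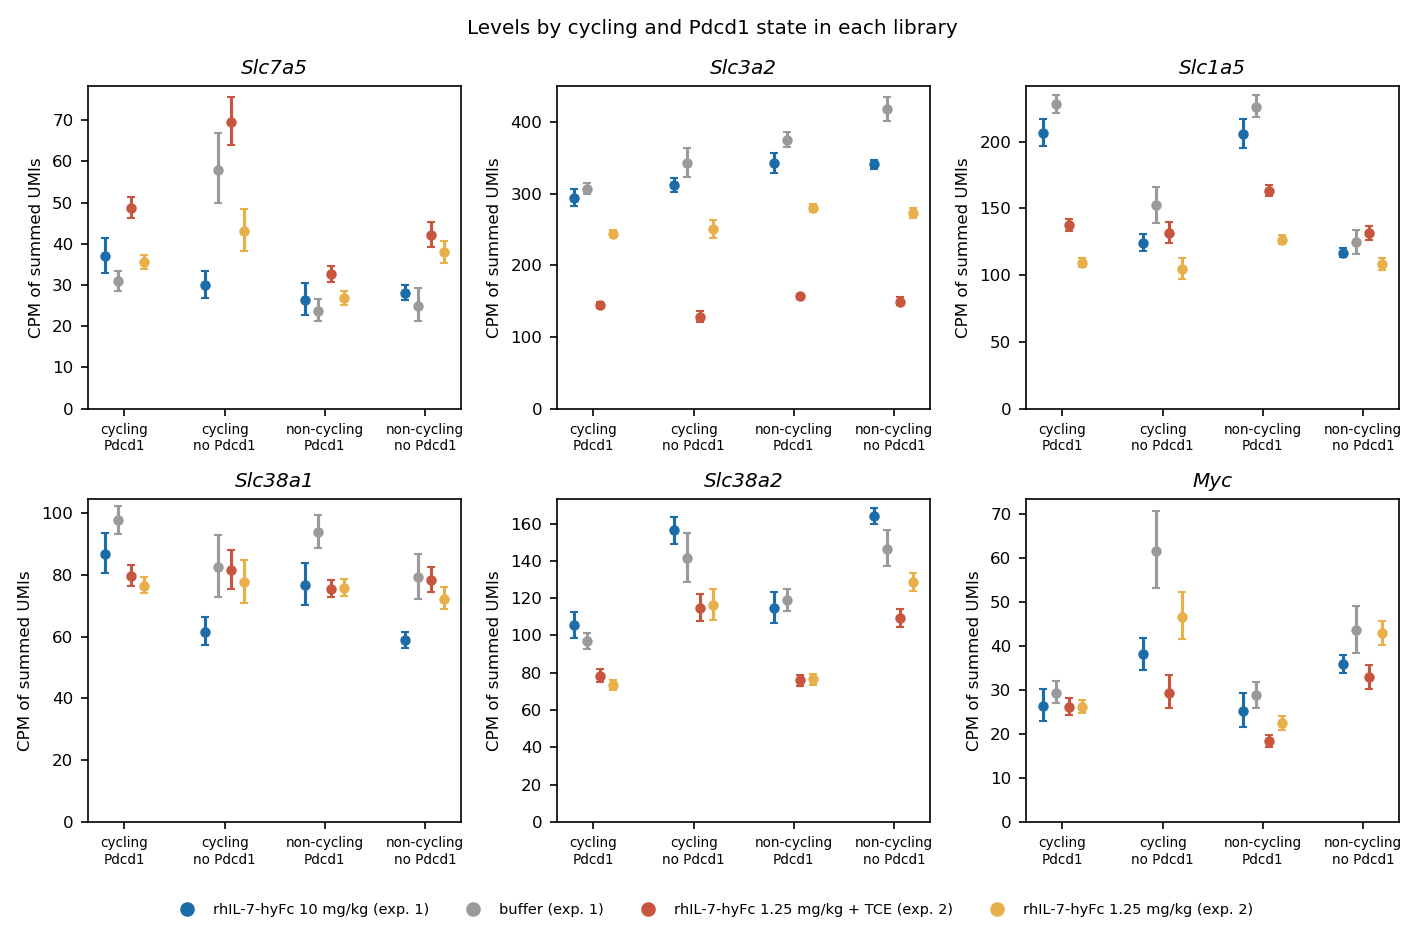
Level of each member (CPM of summed UMIs, y axis from 0) in 4 states of each library, with exact 95% Poisson intervals. At either cycling state, Slc38a2 and Myc are higher without Pdcd1 in every library, and Slc3a2 of the combination lies below the other libraries in every state (128 to 157 CPM, against 244 CPM or more).

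Each of the 7 lists held genes that passed between the Pdcd1 classes. The counts here and in the next paragraph are to be read against the 8.7% of all genes higher and 9.88% lower. Of 12 activation markers, 3 rose and 1 fell, with Tnfrsf4 at a median of 170.2 CPM in Pdcd1 barcodes and 16.04 CPM in the others, Tnfrsf9 at 681 CPM and 154 CPM, and Il2ra at 66.3 CPM and 22.4 CPM; without macrophage RNA 6 rose and 1 fell. Of 31 mTORC1 genes, 2 rose and 7 fell, including the sestrins Sesn1 (-1.19 ± 0.10) and Sesn3 (-0.88 ± 0.12) and the mTORC1 scaffold Rptor (-0.57 ± 0.14). Of 30 MYC targets, 1 rose, the glycolytic enzyme Ldha (0.51 ± 0.13), and 5 fell, among them the nucleolar genes Gnl3 (-0.55 ± 0.07) and Fbl (-0.45 ± 0.09); without macrophage RNA 2 rose and 10 fell. These counts depended on the libraries kept. Without rhIL-7-hyFc 1.25 mg/kg no gene of the 7 lists passed by edgeR, where 51 of 12293 genes rose and 122 fell. Without rhIL-7-hyFc 10 mg/kg 2 activation markers rose and 1 mTORC1 gene fell, where 251 of 12607 genes rose and 192 fell. Without the combination 3 mTORC1 genes and 1 MYC target fell, where 512 of 12509 genes rose and 395 fell.

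Of 12 MAX network genes 1 rose, Mxi1 (1.25 ± 0.31), another repressor that pairs with MAX, and 3 fell, with Mxd1 at -0.63 ± 0.09. Of 16 other amino acid transporters 1 rose and 1 fell, and Slc43a2 was at a median of 11.8 CPM in Pdcd1 barcodes and 25.2 CPM in the others without passing (adjusted p = 0.056). Of 24 ATF4 response genes 0 rose and 1 fell, the stress factor Ddit3 (-0.60 ± 0.14). Of 17 glutamine and branched-chain genes 1 rose, glutamate dehydrogenase Glud1 (0.39 ± 0.08), and 1 fell, glutamine synthetase Glul (-0.43 ± 0.08).

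Clone size gave the largest fitted differences of Myc and Slc38a2 among the state comparisons run. Clonotypes were counted within a library by the beta chain among barcodes with 1 productive beta chain (4822, 2657, 7212 and 6252 barcodes, in the same order of libraries), and clonotypes of at least 5 barcodes were compared with clonotypes seen once. Of 6 members, 1 rose and 2 fell, where 19.7% of 11838 genes were higher and 19.8% lower (39.5% in all). Macrophage RNA was held by more barcodes of the larger clonotypes in every library, at 6.84%, 15.5%, 3.63% and 28.1% in clonotypes of at least 5, against 2.13%, 14.6%, 1.59% and 13.5% in clonotypes seen once.

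Myc in rhIL-7-hyFc 10 mg/kg was at 36.6 CPM in clonotypes seen once, 23.7 CPM in those of 2 to 4 barcodes and 21.1 CPM in those of at least 5. The same series was 50.3, 34.0 and 24.4 CPM in buffer, 30.5, 21.8 and 20.7 CPM in the combination and 43.9, 24.0 and 20.7 CPM in rhIL-7-hyFc 1.25 mg/kg. In clonotypes of at least 5 the 4 libraries thus lay between 20.7 and 24.4 CPM, and in clonotypes seen once between 30.5 and 50.3 CPM. The log2 fold change of at least 5 over seen once was -0.98 ± 0.10 (adjusted p = 0.0014), and it passed in all 16 alternatives run. For every member, 1 of these 16 could not differ from the main fit. It left out barcodes of more than 1 beta chain, which the clone classes never held.

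Slc38a2 followed the same series. It was at 158, 98.5 and 99.4 CPM in clonotypes seen once, of 2 to 4 and of at least 5 in rhIL-7-hyFc 10 mg/kg, and at 140.0, 119.5 and 98.0 CPM in buffer. In the combination it was at 109, 81.4 and 70.3 CPM and in rhIL-7-hyFc 1.25 mg/kg at 123, 93.9 and 69.5 CPM. The log2 fold change was -0.77 ± 0.07 (adjusted p = 0.0011), again past the threshold in all 16 alternatives.

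Slc1a5 was the member that rose with clone size. It was at 124, 217 and 223 CPM in clonotypes seen once, of 2 to 4 and of at least 5 in rhIL-7-hyFc 10 mg/kg, and at 158, 202 and 236 CPM in buffer. In the combination it was at 133, 159.8 and 178 CPM and in rhIL-7-hyFc 1.25 mg/kg at 110.0, 134 and 144 CPM. The log2 fold change was 0.45 ± 0.07 (adjusted p = 0.0053), and 15 of 16 alternatives passed, all but the fit with no library block.

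Slc7a5, Slc38a1 and Slc3a2 did not pass between clone sizes. Slc7a5 was at 32.6, 27.1, 38.7 and 34.0 CPM in clonotypes of at least 5, against 29.0, 29.6, 54.4 and 39.4 CPM in clonotypes seen once, with the widest gap in the combination and a log2 fold change of -0.28 ± 0.09 (adjusted p = 0.057). Slc38a1 had 0.07 ± 0.07 (adjusted p = 0.49) and Slc3a2 -0.12 ± 0.07 (adjusted p = 0.22).

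**Figure D5:**
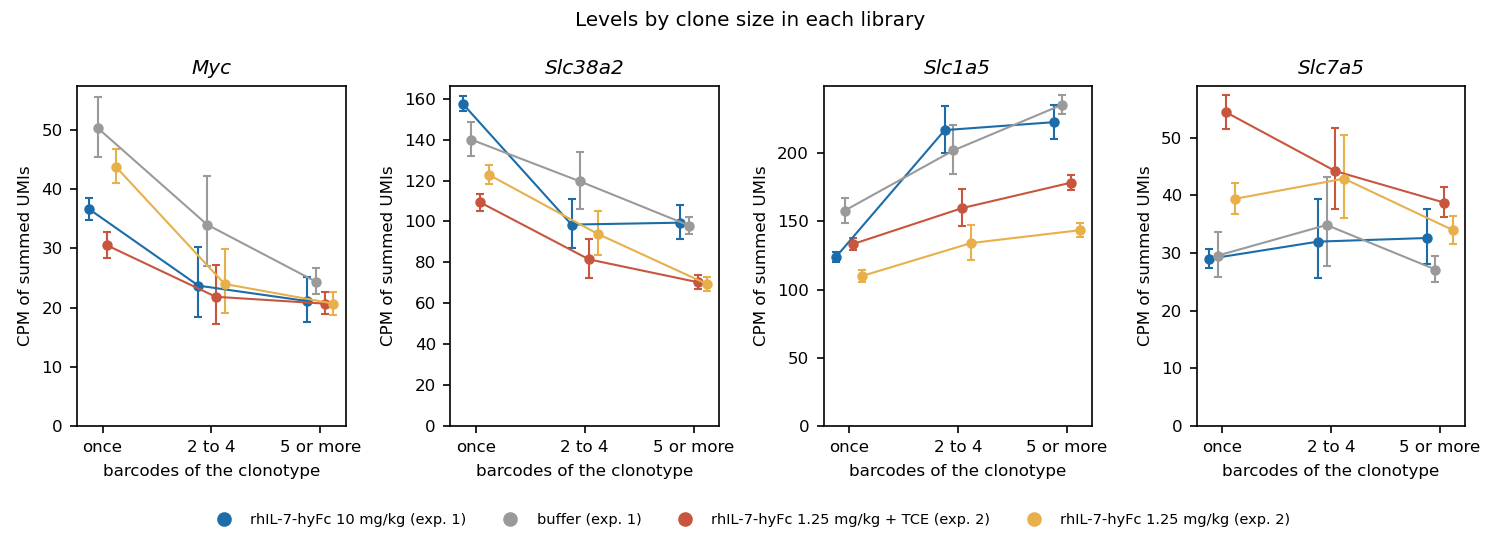
Level of Myc, Slc38a2, Slc1a5 and Slc7a5 (CPM of summed UMIs, y axis from 0) in clonotypes seen once, of 2 to 4 and of at least 5 barcodes in each library, with exact 95% Poisson intervals. Myc and Slc38a2 are lower and Slc1a5 higher in clonotypes of at least 5 than in those seen once in all 4 libraries.

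Other genes of the lists also passed between clone sizes. The counts here and in the next paragraph are to be read against the 19.7% of all genes higher and 19.8% lower. Of 12 activation markers, 9 rose and 1 fell, led by Tnfrsf4 (2.98 ± 0.33), Tnfrsf9 (2.14 ± 0.29) and Il2ra (1.33 ± 0.21); 4 rose without either rhIL-7-hyFc 10 mg/kg or rhIL-7-hyFc 1.25 mg/kg. Of 30 MYC targets, 2 rose and 13 fell (median -0.23, against 0.00 over all genes), among them Gnl3 (-0.70 ± 0.09), Fbl (-0.66 ± 0.06) and the ribosome assembly chaperone Npm1 (-0.58 ± 0.08); 8 fell without rhIL-7-hyFc 1.25 mg/kg. Of 12 MAX network genes, 1 rose, Mxi1 (1.72 ± 0.18), and 5 fell, including Mxd1 (-0.75 ± 0.10); with 1 library left out, 1 to 2 fell.

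Of 31 mTORC1 genes, 2 rose, one being the TSC complex subunit Tbc1d7 (0.86 ± 0.14), and 10 fell, including Sesn3 at a median of 28.8 CPM in clonotypes of at least 5 and 64.6 CPM in those seen once; 6 fell without rhIL-7-hyFc 1.25 mg/kg. Of 16 other amino acid transporters, 2 rose and 2 fell, with the taurine carrier Slc6a6 rising (0.23 ± 0.06) and Slc43a2 falling (-1.25 ± 0.19). Of 22 ATF4 response genes, 2 rose and 3 fell, with the mTORC1 inhibitor Ddit4 at 0.89 ± 0.20 and Ddit3 at -0.71 ± 0.11, and of 17 glutamine and branched-chain genes 2 rose and 1 fell, with Glud1 at 0.46 ± 0.07 and Glul at -0.53 ± 0.06.

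Barcodes with a Myc UMI were compared with barcodes without one to see whether the carriers went with Myc in the same cell. Myc UMIs were found in 23.1% of CD8 T barcodes in rhIL-7-hyFc 10 mg/kg, 20.5% in buffer, 13.02% in the combination and 17.4% in rhIL-7-hyFc 1.25 mg/kg. By edgeR, 0 of the 5 carriers passed an adjusted p of 0.05 (2 had an unadjusted p under 0.05, and DESeq2 called 0), where 4.59% of 12396 genes were higher and 2.85% lower (7.44% in all). Slc7a5 was at 30.3, 38.0, 46.4 and 35.9 CPM in Myc barcodes, against 29.2, 26.4, 42.1 and 32.6 CPM in barcodes without Myc. It was higher in 4 of 4 libraries, by 0.20 ± 0.08 (adjusted p = 0.15), and without macrophage RNA by 0.31 (adjusted p = 0.0098), the 1 carrier that passed under that setting.

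Slc3a2 was lower in Myc barcodes in 4 of 4 libraries by small amounts (-0.11 ± 0.04, adjusted p = 0.17). Slc38a2, whose summed level moved with that of Myc across Pdcd1 state and clone size, had 0.00 ± 0.04 (adjusted p = 0.99) here, Slc38a1 -0.04 ± 0.05 (adjusted p = 0.65) and Slc1a5 -0.08 ± 0.06 (adjusted p = 0.42). Myc barcodes were deeper, with medians of 9177 to 12421 UMIs, against 6496.5 to 9439, and held macrophage RNA in 4.39% to 52.7%, against 3.22% to 31.0%.

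Of 30 MYC target genes, 19 rose in Myc barcodes, 0 fell and the others did not pass (median 0.28, against -0.01 over all genes), with the spermidine synthase Srm at a median of 64.7 CPM in Myc barcodes and 42.0 CPM in the others (0.69 ± 0.08, adjusted p = 0.022), the chromatin factor Rcc1 at 0.55 ± 0.10 and Gnl3 at 0.43 ± 0.08. Without macrophage RNA 28 rose and 0 fell, and with barcodes thinned 4 rose and 0 fell. This count depended on the libraries kept: 0 rose without rhIL-7-hyFc 10 mg/kg or without the combination, 3 without rhIL-7-hyFc 1.25 mg/kg and 22 without buffer, at medians of 0.22 to 0.30. Calls over all genes were lost as well. With all 4 libraries 569 of 12396 genes rose, against 0 of 12552 without rhIL-7-hyFc 10 mg/kg, 1 of 12405 without the combination and 132 of 12031 without rhIL-7-hyFc 1.25 mg/kg.

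Of 24 ATF4 response genes 8 rose and 0 fell, with Asns (0.90 ± 0.21) and Psat1 (0.40 ± 0.09), and thinned 0 of 21 changed by edgeR, with 0 at an unadjusted p under 0.05. Of the glutamine and branched-chain genes 5 of 17 rose and 1 fell, with Ctps at 0.60 ± 0.08, and of activation markers 3 of 12 rose and 1 fell, with the chemokine Xcl1 at 1.11 ± 0.10. Without rhIL-7-hyFc 10 mg/kg no gene of these 3 lists passed, where 0 of all 12552 genes tested did. Without the combination or rhIL-7-hyFc 1.25 mg/kg 0 to 2 rose in each. Of the MAX network 0 of 12 rose and 1 fell, Mxd4 (-0.38 ± 0.06, adjusted p = 0.023), and 0 of 17 other transporters and 0 of 32 mTORC1 genes changed by edgeR, with 4 and 9 at an unadjusted p under 0.05 and 0 and 0 by DESeq2.

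Shares of barcodes with a UMI were also compared with those in barcodes that had no Cd3 or Cd8 UMI. Those barcodes held 10996 to 16535 CPM of macrophage and monocyte markers, so a share there includes what those cells express and is no measure of free RNA alone. With every barcode thinned to 3000 UMIs, Slc1a5 was found in 31.8%, 42.1%, 36.1% and 30.7% of CD8 T barcodes (rhIL-7-hyFc 10 mg/kg, buffer, the combination, rhIL-7-hyFc 1.25 mg/kg), against 11.3%, 13.5%, 10.2% and 8.21% of barcodes with no Cd3 or Cd8 UMI. Unthinned, the CD8 T shares were 67.2%, 69.3%, 63.2% and 59.3%, at median depths given above, against 30.8%, 22.1%, 19.7% and 13.001% at 11414, 5065, 5312.5 and 5343 UMIs. Slc1a5 was thus above that share in all 4 libraries. Slc7a5 was in 8.04%, 7.71%, 10.4% and 9.28% of thinned CD8 T barcodes, against 4.35%, 1.35%, 7.95% and 4.44%. Thinning left out 187, 692, 426 and 587 shallower CD8 T barcodes. Slc38a1 was in 17.3%, 23.9%, 21.3% and 20.9% of thinned CD8 T barcodes, against 13.04%, 12.2%, 19.3% and 13.5%, and Slc38a2 in 36.4%, 30.5%, 22.5% and 24.6%, against 30.4%, 29.7%, 17.05% and 19.5%. The intervals of Slc38a1 overlapped in rhIL-7-hyFc 10 mg/kg and the combination, and those of Slc38a2 in every library but rhIL-7-hyFc 1.25 mg/kg.

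Slc3a2 was in fewer CD8 T barcodes than in barcodes with no Cd3 or Cd8 UMI. The thinned shares were 59.8%, 59.9%, 34.1% and 50.9% of CD8 T barcodes, against 79.1%, 79.7%, 46.6% and 66.5% (unthinned 89.4%, 82.4%, 59.6% and 76.9%, against 85.6%, 75.6%, 53.0% and 79.2%). Myc shares were 8.35%, 8.07%, 5.96% and 7.42%, against 10.4%, 10.8%, 3.41% and 5.11%, with exact 95% intervals that overlapped in all 4 libraries. How much of the Myc share comes from free RNA was not tested. No barcode held more than 46 UMIs of a member.

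Across the 16 sums of library by cycling and Pdcd1 state, the members did not move as 1 group. After centring log2(CPM + 1) within each library, Pearson correlations between members, which share libraries and depth and are given as a description, were 0.85 for Slc38a2 with Myc and for Slc1a5 with Slc38a1, 0.64 for Slc7a5 with Myc, -0.65 for Slc7a5 with Slc3a2 and -0.72 for Slc1a5 with Myc and with Slc38a2. The genes most like a member by that measure were Pom121, Shmt2 and Lsm7 for Slc7a5 (0.96 to 0.97) and Adam10, Actr1b and Mindy3 for Slc1a5 (0.95 to 0.97). For Slc38a1 they were Lta4h, Setd3 and Gmfb (0.92 to 0.94), for Slc38a2 Ighm, Nrarp and Pde2a (0.98) and for Myc Fbxo7, Dipk1a and Hmgn1 (0.94 to 0.96). Shmt2, the mitochondrial serine hydroxymethyltransferase, is also in the ATF4 response list.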

How the data were processed

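The deposited expression files hold raw UMI counts per gene and barcode, which the authors made with Cell Ranger 4.0.0 in experiment 1 and 6.1.2 in experiment 2, per the file headers; GRCm38 is named in the submitters' processing notes. TCR contig tables, also deposited, give UMI counts per contig. The labels do not say how barcodes were kept upstream. Barcodes with at least 500 genes and under 10% mitochondrial UMIs that met the Cd8 and Cd3 rule were used (41144471 to 109627615 UMIs per library); no doublet caller was run, and barcodes with more than 1 beta chain were left out as an alternative. UMIs were summed per library and class and given as CPM with exact Poisson 95% intervals; ratios have exact conditional binomial intervals, shares exact Clopper-Pearson ones, all for counting error only. State comparisons used edgeR 4.0.16 (quasi-likelihood, TMM, filterByExpr, library block, Benjamini-Hochberg; R 4.3.3) on 8 sums, tested on simulated data; classes of 1 library share its barcodes and are paired by it. DESeq2 1.42.0 was an alternative. Treatments were compared within an experiment only, without a test, among genes of at least 5 CPM in 1 library. Python 3.11.15 with scipy 1.17.1 gave intervals. Named genes are the members, up to 3 per list with the largest change among genes of at least 20 CPM in 1 sum, and the 3 most like each member (those of Slc3a2 are not reported here). The members and lists were chosen with earlier results of these data known. Alternatives were listed at the start, except thinning combined with removal of macrophage RNA barcodes and treatment ratios within states without those barcodes, which were chosen after seeing the data.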

Additional observations from a re-analysis of the deposited data

Results flagged for a closer look

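In 3 cases every library of experiment 1 moved one way and every library of experiment 2 the other; the difference between experiments was not tested, and dose, collection time, bead or sorter isolation and Cell Ranger version all change with the experiment and cannot be told apart here. Slc1a5 in cycling over non-cycling barcodes had log2 ratios of 0.27 and 0.16 in rhIL-7-hyFc 10 mg/kg and buffer, and of -0.16 and -0.14 in the combination and rhIL-7-hyFc 1.25 mg/kg, a gap of 0.367 between the means. Within Pdcd1 barcodes the same comparison gave 0.01 and 0.01, and -0.25 and -0.21, a gap of 0.239, with the values of experiment 1 close to 0. Slc38a1 in Pdcd1 barcodes over barcodes without Pdcd1, among cycling barcodes, had 0.49 and 0.24 in experiment 1, and -0.03 and -0.02 in experiment 2, a gap of 0.395, with the values of experiment 2 close to 0.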

How the results depend on the processing

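Over all member values, 689 state results kept direction and side of the threshold, 30 gained and 33 lost a call, and 87 treatment ratios stayed within counting error while 141 moved; none that was called changed sign. Counts of members past 1.5-fold in experiment 1 (0) became 1 with TMM scaling and without macrophage RNA, 2 with mean CPM over barcodes and in cycling barcodes without Pdcd1 (2 also without macrophage RNA), and 3 at 1.2-fold. In experiment 2 (1) they became 3 in cycling barcodes without Pdcd1 (2 without macrophage RNA), 0 in cycling Pdcd1 barcodes without macrophage RNA, 3 at 1.2-fold and 0 at 2-fold. The share of all genes past a fold limit was computed only at 1.5-fold over all CD8 T barcodes, so these other counts have no such share beside them. Without the replicate block (the library left out of the model), members called were 0 for cycling (3 with it), 1 for Pdcd1 (2), 2 for clone size (3), 0 for Myc (0), 0 for cycling within Pdcd1 (2) and within barcodes without Pdcd1 (1), and 0 and 1 for Pdcd1 within cycling (1) and non-cycling barcodes (2). DESeq2 called 4 for Pdcd1, 2 for Pdcd1 within cycling and 4 within non-cycling barcodes; without macrophage RNA the counts were 4, 3 and 4, with 1 for Myc and 2 for cycling within barcodes without Pdcd1, which total-count scaling put at 0. Leaving out each library in turn gave 1 to 2 for cycling, 0 to 2 for Pdcd1, 3 to 4 for clone size, 0 to 0 for Myc, 2 to 2 and 0 to 1 for cycling within Pdcd1 and within barcodes without it, and 0 to 1 and 1 to 4 for Pdcd1 within cycling and non-cycling barcodes. Genes called over all alternatives ranged from 540 to 5243 for cycling (4380), 173 to 4629 for Pdcd1 (2311), 1961 to 4732 for clone size (4678), 0 to 1699 for Myc (922), 619 to 4696 and 433 to 3128 for cycling within Pdcd1 (3613) and without it (2273), and 0 to 2099 and 636 to 4508 for Pdcd1 within cycling (546) and non-cycling barcodes (2623). No paired analysis was possible between treatments because each group is 1 library with no replicate number in the labels. Libraries of 1 group each, UMI-defined classes that depend on depth, and macrophage RNA in up to 34.8% of barcodes limit these results; 4 libraries from 2 experiments give the state tests their only replication.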
